A study of Mus musculus with 2 samples.

Results

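The enzymes that write, maintain and oxidise cytosine methylation were followed across the sorted cells of the embryonic mouse retina. The set holds 7 genes, taken by symbol: the methyltransferases *Dnmt1*, *Dnmt3a* and *Dnmt3b*, the methyltransferase cofactor *Uhrf1*, and the oxidases *Tet1*, *Tet2* and *Tet3*. All 7 were found, each under a single identifier, among the 28692 genes listed in both count matrices. Retinas of embryos at E14.5 that carried the BAC reporter transgene Tg(Lhx4::EGFP)KN199Gsat/Mmucd were pooled from 2 litters into a single suspension and sorted by GFP. The GFP+ and the GFP- cells were each made into 1 droplet library of transcript 3′ ends, so every cell of either gate came from the same heterozygous reporter line and age. The reporter follows an *Lhx4* transgene in early cones, so the gate selects on that transgene and not on a cone protein. With 1 library per gate there were no replicates, no test between groups was made and no p-value is given.

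In vertebrate DNA most methylation sits on the cytosine of CpG and is copied at each replication: UHRF1 binds CpG that is methylated on the parental strand only and brings DNMT1, which methylates the new strand. DNMT3A and DNMT3B methylate DNA without such a template, and DNMT3A is the main de novo enzyme of young neurons. TET1, TET2 and TET3 oxidise 5-methylcytosine to 5-hydroxymethylcytosine, a base that is abundant in neurons, and further to forms that base excision repair can replace. Retinal progenitors of this age divide and give rise to ganglion cells, horizontal cells, amacrine cells and cones, and a cell that has left the cycle no longer copies its methylation pattern.

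In these cells *Uhrf1* and *Dnmt1* were high in cycling cells and lower in every postmitotic group, but not in parallel. *Uhrf1* stood at 158 UMIs per 1000000 (CPM; UMIs are molecule counts) in progenitors marked as in S phase and at 1.75 CPM in the GFP+ cones, whereas *Dnmt1* stood at 73.9 and 22.4 CPM. *Dnmt3a* differed by less than 2-fold between those groups, at 35.3 and 40.3 CPM. Among the 10 cell groups of 50 or more cells, *Tet1*, *Tet2* and *Tet3* took their highest level in the GFP+ cones, although for *Tet1* and *Tet3* the next group overlapped, with *Tet3* at 91.9 CPM against 20.2 CPM in the S-marked progenitors. For *Tet2* the GFP- cones, last in rank on 1 UMI, overlapped the GFP+ cones too. Counted per cell instead of per 1000000 UMIs, the *Tet* levels of the cones were close to those of the other postmitotic neurons.

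After removal of cells outside 250 to 3500 detected genes, or with 0.25 or more of their UMIs from mitochondria, there were 3689 GFP+ cells (15503658 UMIs, median 3894 per cell) and 3391 GFP- cells (30122113 UMIs, median 8853), which left out 39 and 1054 cells. Before this filter the libraries held 16010591 (GFP+) and 46778924 (GFP-) UMIs, so the GFP- cells left out were deep ones. The libraries shared 20 cell barcodes before it. A cell was called cycling with 20 or more UMIs per 10000 from lists of 22 S phase and 24 G2/M genes, and postmitotic with fewer than 10; neither list holds a member, and *Uhrf1*, a common S phase marker, was left out for that reason. Of the GFP- cells 2142 were cycling and 1022 postmitotic, and of the GFP+ cells 48 and 3244. Cycling cells were divided into S-marked and G2/M-marked cells by the larger list, and into neurogenic cells with 2 or more UMIs of *Olig2*, *Neurog2* or *Atoh7* and other progenitors. Levels are ranked over the 10 groups of 50 or more cells, which leaves out 15 GFP- photoreceptor precursors. Postmitotic cells were assigned to cones, ganglion cells or amacrine/horizontal cells where exactly 1 marker list reached 3 UMIs. Cells in which more than 1 of these lists did, 190 GFP- and 29 GFP+ cells, are in none of the groups. The GFP- postmitotic cells held 4505 UMIs of the amacrine/horizontal list, of which the 178 cells named amacrine/horizontal held 1829. The names rest on these lists: the cone list stood at 3635 CPM in the 3162 GFP+ cones and at 15.6 CPM in the 615 GFP- ganglion and amacrine/horizontal cells, called GFP- postmitotic neurons here, and the ganglion list at 37.3 and 5276 CPM. Of the 8 cone-list genes 7 had UMIs in the GFP+ cones, a group that this list itself set. The library labels name the GFP gate and not a cell type. Intervals are exact and 95%, and they cover counting error alone.

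The first comparison set the gates side by side. *Uhrf1* had 52 UMIs in the GFP+ library and 2838 in the GFP- library, or 3.35 CPM (2.50 to 4.40) against 94.2 CPM (90.8 to 97.7). *Dnmt1* had 347 and 1653 UMIs, or 22.4 CPM (20.1 to 24.9) against 54.9 (52.3 to 57.6). Both members of the maintenance pair were therefore lower in the GFP+ library, past 2-fold, and by very different amounts. *Tet3*, the most counted of the oxidases, had 89.3 CPM (84.6 to 94.1) against 28.6 (26.7 to 30.5), a ratio of 3.13 (2.87 to 3.41). *Tet2* had 21.2 against 6.77 CPM, also a ratio of 3.13 (2.62 to 3.75), and *Tet1* 20.4 against 9.76 CPM, a ratio of 2.09 (1.78 to 2.46). *Dnmt3a* and *Dnmt3b* stayed within 2-fold, with ratios of 1.14 (1.03 to 1.25) and 0.65 (0.562 to 0.751). So 3 of 7 members were higher and 2 of 7 lower past 2-fold, where 21.3% of the 12825 genes with 50 or more UMIs were higher and 14.2% lower. The median gene stood 0.30 above 0 on the log2 scale, and relative to it *Tet3* was 1.34 higher, *Tet2* 1.34 and *Tet1* 0.76. GFP+ cells yielded fewer UMIs each: per cell, *Tet1* had a ratio of 0.988, *Tet2* and *Tet3* of 1.48, *Dnmt3b* of 0.308 and *Uhrf1* of 0.0168, so that no *Tet* gene passed 2-fold on that scale and *Dnmt3b* did. These per-cell ratios cover the kept cells alone and depend on the filter. The share of all genes past 2-fold per cell was not computed. Over all 3728 GFP+ and 4445 GFP- barcodes *Tet3* had 1425 and 1365 UMIs, *Tet2* 333 and 326, and *Tet1* 323 and 451. Less RNA per cell and poorer capture cannot be told apart in these data.

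**Figure D1:**
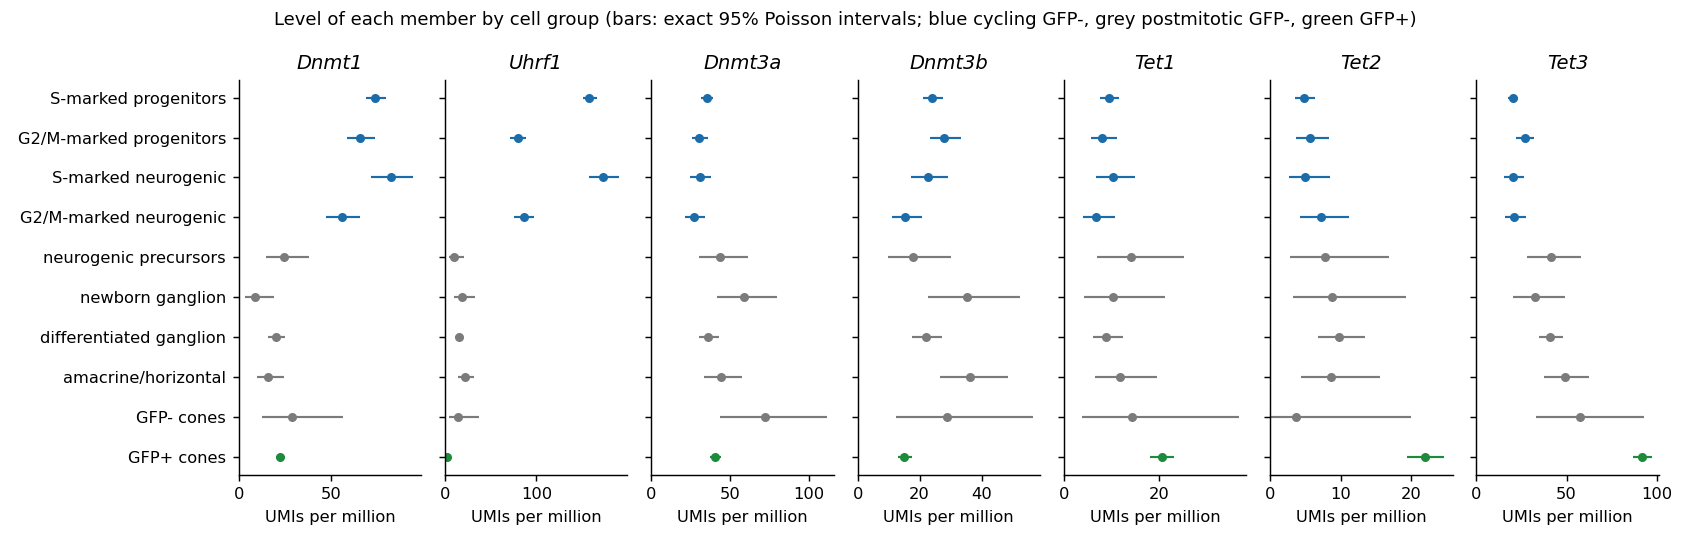
Level of each member (UMIs per 1000000, linear axes that differ between panels) in the 10 cell groups of 50 or more cells. Points are the summed UMIs of a group and bars exact 95% Poisson intervals, and the GFP+ cones (green) lie lowest for *Uhrf1*, at 1.75, and highest for *Tet3*, at 91.9.

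Of the maintenance pair, *Uhrf1* (chr17:56303321-56323486, plus strand, GRCm38) showed the widest span of levels of the 7 members. It had 1578 UMIs in the 1090 S-marked progenitors, 158 CPM (150.4 to 166), and 453 UMIs in the 304 S-marked neurogenic cells, 173 CPM (158 to 190.0). G2/M-marked progenitors had 79.5 CPM (71.6 to 88.1) and G2/M-marked neurogenic cells 85.9 CPM (75.2 to 97.8). The S-marked groups overlapped each other, as did the G2/M-marked groups, and the first pair lay above the second with no overlap. All postmitotic GFP- groups lay lower again: amacrine/horizontal cells at 22.1 CPM (14.7 to 31.9), newborn ganglion cells at 19.1 (10.2 to 32.6), differentiated ganglion cells, those with 3 or more UMIs of the axon genes, at 15.2 (11.5 to 19.7), GFP- cones at 14.3 (3.91 to 36.7), and postmitotic cells with neurogenic transcripts at 10.3 (4.44 to 20.3). Neighbours in that order overlapped. The GFP+ cones had 23 UMIs in 3162 cells, 1.75 CPM (1.11 to 2.62), below the other 9 groups with no overlap.

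The cell counts showed the same span. Of the S-marked progenitors, 764 of 1090 held a *Uhrf1* UMI and 224 held 3 or more, up to 8 in a cell. Of the GFP+ cones 23 of 3162 held one, and no cone held more than 1. With each cell thinned to 3200 UMIs, which left out 6 progenitors and 470 cones, a *Uhrf1* UMI was seen in 39.9% (37 to 42.9%) of the S-marked progenitors and 0.669% (0.397 to 1.05%) of the cones; unthinned, at medians of 9246.5 and 3898.5 UMIs, the shares were 70.1% and 0.727%.

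*Dnmt1* (chr9:20907209-20959888, minus strand), the enzyme that *Uhrf1* recruits, kept a larger part of its level outside the cycle. It had 73.9 CPM (68.7 to 79.5) in S-marked progenitors, 82.2 (71.6 to 94.0) in S-marked neurogenic cells, 65.5 (58.3 to 73.4) in G2/M-marked progenitors and 55.9 (47.3 to 65.7) in G2/M-marked neurogenic cells. Postmitotic groups ran from 8.81 CPM (3.23 to 19.2) in newborn ganglion cells to 28.7 (12.4 to 56.5) in GFP- cones, and the GFP+ cones, at 22.4 CPM (19.9 to 25.1; 295 UMIs), lay within that range. Every neighbouring pair in this order overlapped. The lowest cycling group and the highest postmitotic group of these 10 overlapped through the 54 GFP- cones, whose 8 UMIs left a wide interval.

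Within the GFP- library, cycling over postmitotic cells gave a ratio of 8.64 (7.25 to 10.4) for *Uhrf1*, 132 against 15.3 CPM, and of 3.23 (2.78 to 3.79) for *Dnmt1*, 70.7 against 21.8 CPM. These were the members past 2-fold, 2 of 7 higher and 0 lower, where 14.0% of 11775 genes were higher and 15.0% lower. *Tet3* at 0.514 (0.446 to 0.592) and *Tet2* at 0.538 (0.401 to 0.725) lay just inside the 2-fold line, and *Dnmt3a* at 0.723, *Tet1* at 0.835 and *Dnmt3b* at 0.892 nearer to 1. With a single threshold of 40 list UMIs per 10000, which places the cells below it with the postmitotic ones, the ratios were 2.67 for *Uhrf1* and 2.16 for *Dnmt1*. The few cycling cells of the GFP+ library went the same way for *Uhrf1*: 28 UMIs in 48 cells, 89.8 CPM (59.7 to 129.8), against 1.69 CPM in the 3244 postmitotic GFP+ cells. *Tet3* was lower in those 48 cells, at 35.3 CPM (17.6 to 63.1) against 91.0 (86.0 to 96.2). They held both the cone list, at 1219 CPM, and the progenitor list, at 2458 CPM, and whether droplets with 2 cells are among them was not tested.

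The maintenance pair also moved differently through the cycle. S-marked over G2/M-marked cycling cells gave 1.97 (1.80 to 2.16) for *Uhrf1* and 1.22 (1.09 to 1.37) for *Dnmt1*, with 0 of 7 members past 2-fold in either direction, where 3.11% of 10832 genes were higher and 3.07% lower. *Uhrf1* was higher than 96.8% of those genes in this ratio. It passed 2-fold when cycling cells were taken from 40 list UMIs per 10000, at 2.32, and in thinned cells, at 2.08. When the cycling cells were laid out by the S list's share of their cycle-list UMIs, in 5 bins of 20%, *Uhrf1* held 81.0, 77.0 and 91.1 CPM in the first 3 bins and 179.9 and 166 CPM in the last 2. *Dnmt1* was lowest where G2/M genes dominated, at 42.7 CPM (34.9 to 51.7), with 63.3 in the second bin and 82.3 in the third. It stood at 84.6 (75.2 to 94.7) in the fourth bin and held 71.6 (65.7 to 77.8) in the fifth. *Uhrf1* thus changed in a step at an S share of 60%, and *Dnmt1* in smaller steps that began at a lower S share. The bins order cells by this share and not by time in the cycle.

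**Figure D2:**
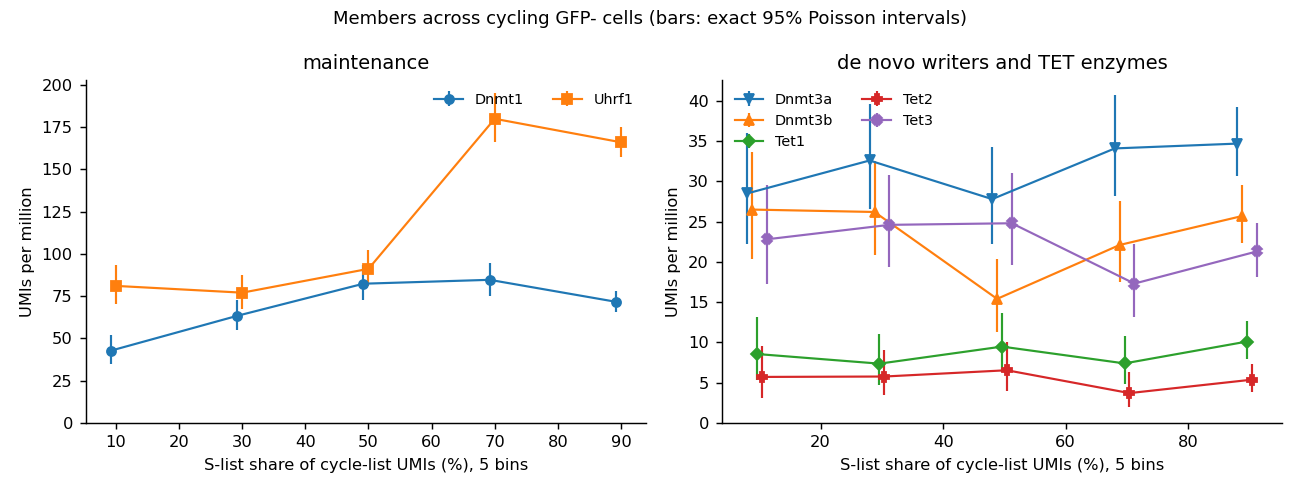
Levels (UMIs per 1000000) in cycling GFP- cells by the share of S genes among their cycle-list UMIs, G2/M-dominated cells at the left and S-dominated cells at the right. Bars are exact 95% Poisson intervals, and *Uhrf1* steps from 91.1 to 179.9 at an S share of 60% while the de novo writers and oxidases (right panel, its own scale) stay between 3.69 and 34.7.

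Neurogenic and other cycling GFP- cells did not differ past 2-fold in any member (0 of 7 higher and 0 of 7 lower, where 2.76% and 4.01% of 10832 genes were). *Uhrf1* stood at 129 against 133 CPM, a ratio of 0.968 (0.886 to 1.06), and *Dnmt1* at 69.0 against 71.3 CPM, 0.967 (0.856 to 1.09). *Dnmt3b* was the member whose interval lay below 1, at 18.9 against 25.4 CPM, 0.747 (0.593 to 0.934). For the maintenance pair, counting error allowed ratios of up to 1.06 and 1.09.

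What remained of *Uhrf1* in the postmitotic GFP- cells was set beside RNA that those cells should lack. GFP- postmitotic neurons held *Uhrf1* at 13% (10.5 to 15.9%) of the level of cycling GFP- cells, and the 6 progenitor genes together at 6.1% (5.79 to 6.42%), from 4.41% for *Nr2e1* to 11.2% for *Lhx2*. *Dnmt1* was at 25.3% (20.5 to 30.9%). In the 153 of these neurons without any progenitor-list UMI, *Uhrf1* stood at 14.8 CPM (9.16 to 22.6), and in the other 462 at 18.0 CPM (14.2 to 22.4). The GFP+ cones held *Uhrf1* at 1.32% (0.836 to 1.99%) of the cycling level and *Dnmt1* at 31.7% (27.9 to 36.0%). Progenitor genes in them ranged from 0.119% for *Fgf15* to 1.69% for *Nr2e1*, with *Lhx2* apart at 32.8%. Of the 6 progenitor genes, all but *Lhx2* stood lower in these cones than in the GFP- neurons, as did *Uhrf1*, and *Lhx2* stood higher. The GFP- library is also the one that holds most progenitors. The part of free RNA in the *Uhrf1* of GFP- neurons was not tested.

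The promoters of the pair are shown because their levels followed the cycle to different degrees, and that of *Tet2* because its level was highest in the GFP+ cones. The sequences are the 250 bases before a RefSeq transcript start (GRCm38.p6, 5′ to 3′ on the gene's strand), which matched all 7 members with 12 windows, and windows that overlap an annotated exon are not printed. Capitals mark the words TTTCCCGC, TTTCGCGC, TTTGCCGC and TTTGGCGC, which are forms of the E2F site of S phase genes, and CCAAT, each on either strand. Windows are *Uhrf1* chr17:56304063-56304312 (plus), *Dnmt1* (window a) chr9:20952980-20953229 (minus), *Dnmt1* (window b) chr9:20959889-20960138 (minus) and *Tet2* chr3:133544391-133544640 (minus).
Uhrf1: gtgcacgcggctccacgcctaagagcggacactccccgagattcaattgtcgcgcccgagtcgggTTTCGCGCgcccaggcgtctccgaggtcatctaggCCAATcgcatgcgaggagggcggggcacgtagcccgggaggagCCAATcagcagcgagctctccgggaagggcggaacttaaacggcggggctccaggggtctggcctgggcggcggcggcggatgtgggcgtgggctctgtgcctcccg
Dnmt1, window a: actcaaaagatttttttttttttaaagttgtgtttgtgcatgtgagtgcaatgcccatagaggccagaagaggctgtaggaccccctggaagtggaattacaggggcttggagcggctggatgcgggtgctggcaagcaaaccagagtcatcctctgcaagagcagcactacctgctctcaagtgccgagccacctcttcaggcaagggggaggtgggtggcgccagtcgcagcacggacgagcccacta
Dnmt1, window b: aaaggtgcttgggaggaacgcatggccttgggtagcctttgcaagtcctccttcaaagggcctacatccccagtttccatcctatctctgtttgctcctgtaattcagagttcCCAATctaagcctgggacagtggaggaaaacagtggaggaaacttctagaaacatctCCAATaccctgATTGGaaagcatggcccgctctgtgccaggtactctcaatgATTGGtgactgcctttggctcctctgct
Tet2: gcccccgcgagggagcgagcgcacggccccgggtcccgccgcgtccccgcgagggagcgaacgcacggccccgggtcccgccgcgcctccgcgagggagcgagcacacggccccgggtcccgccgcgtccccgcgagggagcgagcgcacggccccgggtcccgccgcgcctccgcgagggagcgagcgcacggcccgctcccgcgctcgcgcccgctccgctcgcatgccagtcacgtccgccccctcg

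The *Uhrf1* window printed held TTTCGCGC, 2 CCAAT words and 30 CpG. The other *Uhrf1* window, which overlaps an annotated exon, held no E2F word, 1 CCAAT word and 10 CpG. An E2F word of any of the 4 forms stood in 1.86% of the 32851 promoter windows of this length, and CCAAT in 33.8%. Of the 12 member windows 2 held an E2F word, the *Uhrf1* window printed and 1 of the 3 windows of *Dnmt1*, where it lay within an annotated exon of the gene. Of the *Dnmt1* windows, the one with the E2F word held 3 CCAAT words and 26 CpG, window a neither word and 7 CpG, and window b 4 CCAAT words and 2 CpG, where the median over all windows was 6 CpG. The *Tet2* window held neither word and 51 CpG, more than 99.9% of windows. None of the 12 member windows held TAATCC, the core word bound by the photoreceptor factors OTX2 and CRX, which stood in 6.25% of all windows. TTTGAA, a word of G2/M promoters, was in 1 window each of *Dnmt1* and *Dnmt3b* and in 16% of all windows.

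Among the de novo methyltransferases, *Dnmt3a* (chr12:3806007-3914443, plus strand) was present in every group, lower in the 4 cycling groups than in newborn ganglion cells. Its lowest level was 27.0 CPM (21.1 to 34.0) in G2/M-marked neurogenic cells, and the S-marked progenitors stood at 35.3 CPM (31.7 to 39.1). The GFP+ cones held 40.3 CPM (36.9 to 43.9; 530 UMIs), amacrine/horizontal cells 44.2 (33.4 to 57.4) and differentiated ganglion cells 36.2 (30.4 to 42.7). Newborn ganglion cells, at 58.7 CPM (41.9 to 79.9), and GFP- cones, at 71.7 (43.8 to 111), stood highest on 40 and 20 UMIs, and neither overlapped the S-marked progenitors. All neighbours in the order overlapped. Newborn ganglion cells were set against differentiated ones to ask whether the level changes as these cells mature. *Dnmt3a* was lower in the differentiated cells, at 0.616 (0.431 to 0.9) of the newborn level, and *Dnmt1* higher, at 2.29 (1.01 to 6.44), the latter on 6 UMIs in 81 newborn cells.

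*Dnmt3b* (chr2:153649450-153687730, plus strand), which in many tissues is the de novo enzyme of the early embryo, was lowest in the GFP+ cones at 15.1 CPM (13.1 to 17.4; 199 UMIs), overlapping the next group. Amacrine/horizontal cells held 36.3 CPM (26.6 to 48.4), newborn ganglion cells 35.2 (22.6 to 52.4) and differentiated ganglion cells 22.0 (17.6 to 27.3). Among cycling cells it ran from 15.4 CPM (11 to 20.9) in G2/M-marked neurogenic cells to 28.0 (23.4 to 33.3) in G2/M-marked progenitors, which did not overlap. *Dnmt3b* made up 42.2% (39.3 to 45.1%) of the *Dnmt3b* plus *Dnmt3a* UMIs in cycling GFP- cells and 27.3% (24.1 to 30.7%) in the GFP+ cones. *Dnmt3a* and *Dnmt3b* each overlap an antisense gene in the annotation, *Tet2* and *Tet3* a gene on the other strand, and whether strand was used in counting is not given in the sources used here.

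The oxidases shared an order in which the GFP+ cones came first. *Tet3* (chr6:83362373-83459084, minus strand), the *Tet* gene with the most UMIs, had 1208 UMIs in these cones, 91.9 CPM (86.7 to 97.2). The GFP- cones held 57.4 CPM (32.8 to 93.2) on 16 UMIs, which overlapped. Amacrine/horizontal cells followed at 48.9 CPM (37.5 to 62.7), neurogenic precursors at 41.2 (28.1 to 58.1), differentiated ganglion cells at 40.9 (34.7 to 47.8) and newborn ganglion cells at 32.3 (20.2 to 48.9). The 4 cycling groups lay lowest, between 20.2 CPM (17.5 to 23.2) and 26.7 (22.2 to 31.9), and among the 6 postmitotic groups ranked, the intervals of newborn ganglion cells and neurogenic precursors overlapped theirs.

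*Tet2* (chr3:133463679-133545139, minus strand), which lacks the DNA-binding CXXC domain of its relatives, had 288 UMIs and 21.9 CPM (19.4 to 24.6) in the GFP+ cones. The next group, differentiated ganglion cells, held 9.7 CPM (6.83 to 13.4) with no overlap, and the cycling groups between 4.81 (3.55 to 6.37) and 7.13 (4.29 to 11.1). In the 54 GFP- cones only 1 *Tet2* UMI was counted, 3.59 CPM (0.0908 to 20), the lowest level of the groups ranked. That wide interval overlapped the GFP+ cones. *Tet1* (chr10:62804570-62908996, minus strand), best known from pluripotent cells, had 271 UMIs and 20.6 CPM (18.2 to 23.2) in the GFP+ cones and 6.76 to 14.3 CPM in the other 9 groups. The GFP- cones, at 14.3 CPM (3.91 to 36.7) on 4 UMIs, and the neurogenic precursors, at 14.1 (7.06 to 25.3) on 11, overlapped the GFP+ cones, as did amacrine/horizontal cells, at 11.8 (6.62 to 19.5), and newborn ganglion cells, at 10.3 (4.13 to 21.2), so the first place of *Tet1* is not resolved either.

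GFP+ cones were then compared with the GFP- postmitotic neurons, both called postmitotic by the same threshold but from different gates. Residual transcripts of the cycle and of progenitors were not all equal. The G2/M list stood at 44.4 CPM in the cones and 94.6 in the neurons, and the progenitor list at 119 and 258. The S list was nearer, at 405 and 392 CPM. *Tet2* had a ratio of 2.34 (1.74 to 3.19), 21.9 against 9.37 CPM, *Tet3* of 2.21 (1.92 to 2.54), 91.9 against 41.6 CPM, and *Tet1* of 2.12 (1.59 to 2.88), 20.6 against 9.72 CPM. *Uhrf1* was lower, at 0.102 (0.0617 to 0.162), 1.75 against 17.2 CPM. *Dnmt3b*, at 0.566 (0.457 to 0.704), *Dnmt3a*, at 0.993 (0.849 to 1.16), and *Dnmt1*, at 1.26 (1 to 1.59), stayed within 2-fold. Thus 3 of 7 members were higher and 1 of 7 lower, where 24.7% of 11283 genes were higher and 8.66% lower. The median gene was 0.38 higher in the cones on the log2 scale, and relative to it the *Tet* genes stood at 0.69 to 0.83, none past 2-fold, *Dnmt3b* at -1.20 and *Uhrf1* at -3.65. *Uhrf1* lay among the lowest 2.27% of genes, whereas *Tet1*, *Tet2* and *Tet3* stood above 77.8%, 81.4% and 79.6% of them. With TMM factors no *Tet* gene passed 2-fold (1.75, 1.93 and 1.82 for *Tet1*, *Tet2* and *Tet3*), and *Dnmt3b* did, at 0.468. The share of all genes past 2-fold with these factors was not computed.

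Per cell the *Tet* ratios were near 1. The cones yielded 38.2 *Tet3* UMIs per 100 cells and the GFP- postmitotic neurons 39, and ratios per cell were 0.979 for *Tet3*, 1.04 for *Tet2* and 0.941 for *Tet1*. The same scale put *Dnmt1* at 0.557, *Dnmt3a* at 0.441 and *Dnmt3b* at 0.251. The cells of these groups differed in depth, with medians of 3898.5 and 9485 UMIs. A *Tet3* UMI was seen in 31.2% of the cones and 31.9% of the neurons as sequenced, and in 24.6% (23.0 to 26.3%) and 12.9% (10.3 to 15.8%) at 3200 UMIs per cell. So among the cells kept by the filter, *Tet* transcripts made up a larger share of a cone's UMIs, at about the same number per cell. *Dnmt3a* and *Dnmt3b* gave fewer UMIs per cell. A gene with the same share of UMIs in both groups also gives fewer per cone, as the cones held fewer UMIs each. The per-cell ratio of the median gene was not computed, so these ratios are not placed among all genes.

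**Figure D3:**
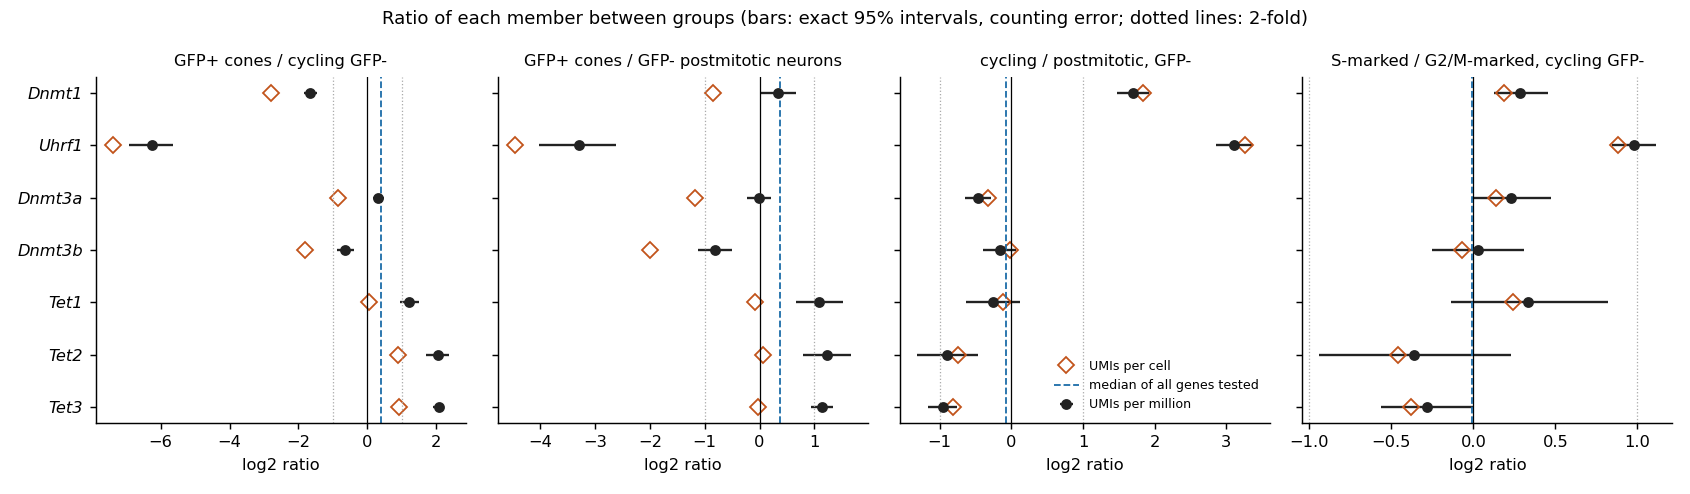
Log2 ratio of each member in 4 comparisons, per 1000000 UMIs (black points, exact 95% intervals for counting error) and per cell (orange diamonds). Dotted lines mark 2-fold. The blue dashed line is the median of all genes tested per 1000000 UMIs and does not apply to the diamonds. In the second panel the 3 *Tet* genes lie past 2-fold per 1000000 UMIs and near 0 per cell.

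Against the cycling GFP- cells, a comparison chosen after the values were seen, the cones had *Tet3* at 4.21 (3.77 to 4.70), *Tet2* at 4.10 (3.27 to 5.17) and *Tet1* at 2.32 (1.91 to 2.82), and *Dnmt1* at 0.317 (0.279 to 0.36) and *Uhrf1* at 0.0132 (0.00836 to 0.0199). So 3 of 7 members were higher and 2 of 7 lower, where 27.4% of 12218 genes were higher and 13.9% lower. Per cell *Tet3* had 1.89, *Tet2* 1.84 and *Tet1* 1.04 times the UMIs of a cycling cell. *Dnmt3a* had 0.558 and *Dnmt3b* 0.287 times as many per cell, against 1.24 and 0.64 per 1000000 UMIs.

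Markers of other cells were looked up in the groups compared. Of the 4 microglia genes, *C1qa* had 368 UMIs in the GFP+ cones and 2 in the GFP- postmitotic neurons, while *C1qb*, *Aif1* and *Csf1r* had 0 in the cones. Of the 3 pigment epithelium genes *Dct* had 98 of 108 UMIs in the cones, and 5 in the neurons. The 3 endothelium genes differed in direction: *Cldn5* had 11 UMIs in the cones and 379 in the neurons, *Pecam1* 64 and 5, and *Kdr* 3 and 40, with 957 in cycling GFP- cells. Red blood cell genes had 20 and 5 UMIs and lens genes 69 and 3. The part of such cells in the member ratios was not tested.

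Amacrine/horizontal and ganglion cells of the GFP- library, the pair of neuron classes born at this age beside cones, did not differ past 2-fold in any member. Cells in which both lists reached 3 UMIs are in neither group. The members were 0 of 7 higher and 0 of 7 lower in ganglion cells, where 7.39% of 8021 genes were higher and 5.57% lower. *Dnmt3b* had the interval furthest from 1, with 108 UMIs and 24.0 CPM in ganglion cells against 46 UMIs and 36.3 CPM, a ratio of 0.662 (0.465 to 0.956). *Uhrf1* had 15.8 against 22.1 CPM, 0.715 (0.456 to 1.15), and the progenitor list stood at 14% (13 to 15.1%) of the cycling level in amacrine/horizontal cells and at 3.04% (2.78 to 3.33%) in differentiated ganglion cells. *Tet3*, at 0.809 (0.603 to 1.10), and *Tet2*, at 1.10 (0.559 to 2.37), were not distinguished at this depth.

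Within the GFP+ cones most intervals of the members held 1, and those on few UMIs were too wide to show little variation. The cones were ranked by the UMIs of their cone list per 10000 and cut into 3 groups of 1054 cells with list medians of 21.5, 36.0 and 53.9. Whether this level follows the maturation of a cone was not tested. The groups also differed in depth, with medians of 4247.5, 3906.5 and 3672.5 UMIs. *Tet3* held 84.7 (76.6 to 93.3), 97.4 (88.4 to 107) and 94.3 CPM (85.1 to 104) from the lowest to the highest group, *Dnmt3a* 37, 42.6 and 41.7 CPM, and *Dnmt1* 19.7, 26.3 and 21.5 CPM. Highest over lowest, every interval of the 7 members held 1, with *Tet3* at 1.11 (0.966 to 1.28). *Uhrf1* had 9, 9 and 5 UMIs in the 3 groups, and its ratio of highest over lowest was 0.653 (0.172 to 2.17). Cones with 2 or more UMIs of *Fabp7*, a fatty acid binding protein of young retinal cells, were set against those with none. Their depth differed too, with medians of 4483 and 3729.5 UMIs. Of the 7 members *Tet3* was the one whose interval excluded 1, at 80.8 against 94.8 CPM, 0.852 (0.739 to 0.981). As sequenced, 31.4% and 30.8% of these cones held a *Tet3* UMI. In thinned cells the shares were 22.1% (19 to 25.5%) and 25.3% (23.1 to 27.6%), which overlapped. The part of depth in this *Tet3* ratio was not tested. In the 128 cones with 3 or more UMIs of ATF4 target genes, a stress response, the intervals of all 7 members held 1 against the 2606 cones with none. *Dnmt3b* had 4 UMIs there, 6.91 CPM against 16, a ratio of 0.432 (0.116 to 1.13).

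The 54 GFP- cells with cone markers were few, and their cone list stood at 1707 CPM against 3635 CPM in the GFP+ cones. *Uhrf1* was lower in the GFP+ cones at 0.122 (0.0417 to 0.485), on 4 UMIs in the GFP- cones, where the progenitor list stood at 5.34% of the cycling level. *Dnmt3a* was lower at 0.562 (0.36 to 0.927) and *Tet2* higher at 6.11 (1.09 to 242), on 1 UMI in the GFP- cones.

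The share of *Tet1*, *Tet2* and *Tet3* among the UMIs of all 7 members followed these levels. It sets the oxidases against the methyltransferases and *Uhrf1* together. Of the 2909 UMIs of those other members in S-marked progenitors 1578 were *Uhrf1*, and 23 of 1047 in the GFP+ cones. The share therefore also follows *Uhrf1*. It was 10.6% (9.54 to 11.7%) in S-marked and 16.6% (185 *Tet* UMIs) in G2/M-marked progenitors, 37% (30.8 to 43.4%) in amacrine/horizontal cells, 38.9% (34.9 to 43.0%) in differentiated ganglion cells and 62.8% (61.0 to 64.6%) in the GFP+ cones. In the GFP- cones, on 21 *Tet* UMIs and 40 of the other members, it was 34.4% (22.7 to 47.7%), with no overlap of the GFP+ cones. A share of this kind does not depend on the scaling of a cell. Within the maintenance pair, *Uhrf1* gave 68.1% (66.2 to 70.0%) of the *Uhrf1* plus *Dnmt1* UMIs in S-marked progenitors, 54.8% (51.0 to 58.7%) in G2/M-marked progenitors and 7.23% (4.64 to 10.7%) in the GFP+ cones. The GFP- cones, on 4 and 8 UMIs, gave 33.3% (9.92 to 65.1%), and newborn ganglion cells, on 13 and 6 UMIs, 68.4% (43.4 to 87.4%).

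**Figure D4:**
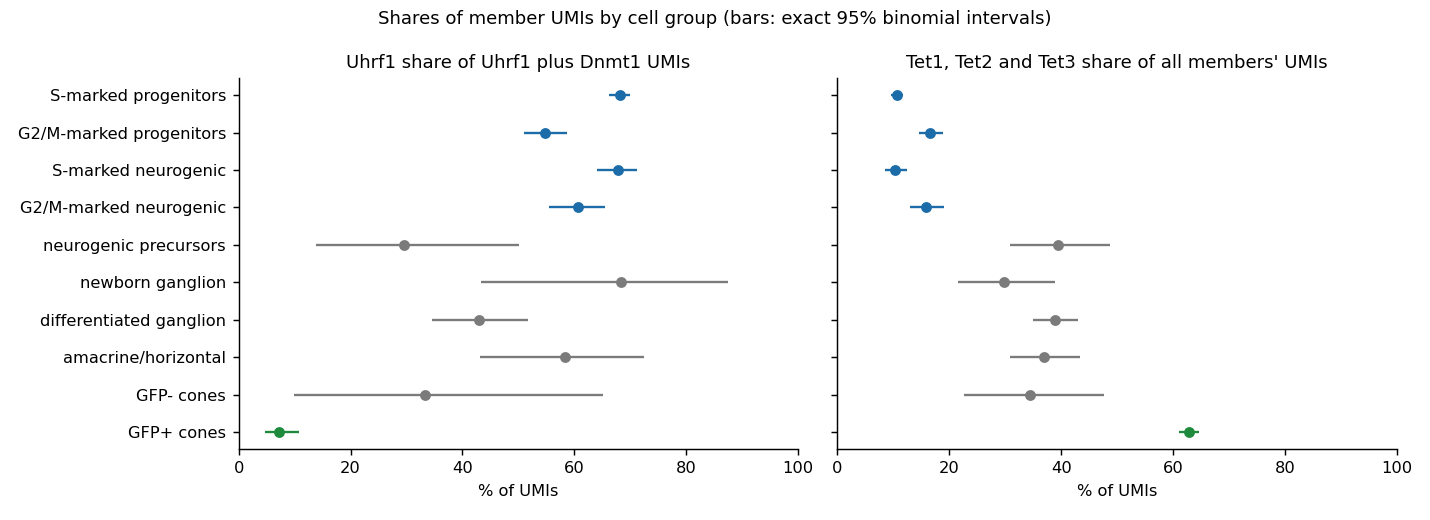
Share of *Uhrf1* in the *Uhrf1* plus *Dnmt1* UMIs (left) and of *Tet1*, *Tet2* and *Tet3* in the UMIs of all 7 members (right), in percent, for 10 cell groups. Bars are exact 95% binomial intervals, and the GFP+ cones (green) lie apart from the other groups in the right panel, at 62.8%.

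Other genes of the pathway were taken as 5 lists of 34 genes in all. *Hells*, a chromatin remodeler that DNA methylation needs, is among the partners of the methyltransferases. It stood at 126 CPM in cycling GFP- cells and 9.28 CPM in the GFP+ cones, a ratio of 0.0739 (0.0611 to 0.0886). It was also higher in S-marked than G2/M-marked cells, at 2.48 (2.24 to 2.75), and unlike *Uhrf1* it stood no lower in cones than in GFP- postmitotic neurons, at 1.24 (0.872 to 1.80). *Uhrf2*, the paralog of *Uhrf1*, was within 2-fold throughout, at 131 CPM in the cones, 112 in cycling cells and 81.2 in GFP- neurons. *Dnmt3l*, the germ cell cofactor of the de novo enzymes, had 0 UMIs in all of these groups. In all, 1 of the 6 partners tested was higher (*Zfp57*, a protector of imprints, at 2.03, or 1.55 with TMM factors) and 1 lower (*Hells*) in cones than in cycling cells, where 27.4% and 13.9% of all genes were. Their median log2 ratio was 0.12 against 0.40 over all genes.

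Among the 7 readers of methylated CpG described here, *Zbtb4* was higher in cones than in cycling cells, at 7.58 (5.35 to 11), and *Mbd4*, a reader that also excises mismatched thymine, was lower, at 0.412 (0.317 to 0.529). Their median log2 ratio was 0.33, beside 0.40 over all genes. Against the GFP- neurons 2 of these 7 readers were higher in cones, *Zbtb4* at 8.59 (4.57 to 18.2) and *Zbtb38* at 2.56 (1.95 to 3.42), and 0 were lower, where 24.7% and 8.66% of all genes were, so the count of readers is near that of any genes.

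Of the 11 genes for TET partners and for removal of modified cytosine, 3 were higher and 1 lower in cones than in cycling cells, with a median of 0.57, counts near the 27.4% and 13.9% over all genes. With TMM factors 2 were higher and 2 lower against cycling cells, as *Idh1* came within 2-fold and *Apex1*, at 0.504, went to 0.385. The factors multiply every cone ratio by 0.764 against cycling cells and by 0.826 against GFP- neurons. The share of all genes past 2-fold with these factors was not computed, so the TMM counts have none beside them. *Ogt*, the glycosyltransferase that binds TET2 and TET3, stood at 319 CPM in cones against 81.7, a ratio of 3.91 (3.69 to 4.14), and against 109 CPM in GFP- neurons, 2.92 (2.68 to 3.18). *Cxxc4*, which encodes a CXXC protein that binds TET2, stood at 55.7 against 11 CPM, 5.05 (4.33 to 5.90), and *Idh1*, an enzyme that makes the TET cosubstrate 2-oxoglutarate, at 159 against 68 CPM, 2.34 (2.19 to 2.51), or 1.79 with TMM factors. *Gadd45a*, a stress and repair protein, was lower in cones at 88.7 CPM against 349 in cycling cells and 920.1 in GFP- neurons. The cycling cells were mixed, with 1144 CPM in neurogenic cells and 61 CPM, below the cones, in the other cycling cells. *Tdg*, the glycosylase that removes the oxidised bases, was at 115 CPM in cones, 84.1 in cycling cells and 112 in GFP- neurons. Against the GFP- neurons 4 of the 11 were higher (*Gadd45b*, *Ogt*, *Gadd45g* and *Cxxc4*) and 2 lower (*Gadd45a* and *Apex1*), where 24.7% and 8.66% of all genes were, with a median of 0.12 beside 0.38 over all genes. With TMM factors 2 were higher and 3 lower, as *Gadd45g* (1.80) and *Cxxc4* (1.78) came within 2-fold and *Idh1* (0.49) passed it.

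Of 4 genes for the supply of methyl groups, *Mtr*, methionine synthase, was lower in cones than in cycling cells at 0.335 (0.163 to 0.634), on 12 UMIs. The other 3 were within 2-fold, where 27.4% of all genes were higher and 13.9% lower. With TMM factors 2 of the 4 were lower, as *Ahcy* went from 0.559 to 0.427, and the share of all genes was not computed with them. *Mat2a*, which makes the methyl donor S-adenosylmethionine, stood at 310.2 CPM in cones against 234 in cycling cells, 1.32 (1.27 to 1.38). Of the 5 CXXC proteins of unmethylated CpG none passed 2-fold in either comparison, and *Kmt2a* came nearest, at 1.98 against cycling cells. Over all genes 27.4% were higher and 13.9% lower against cycling cells, and 24.7% and 8.66% against GFP- neurons. In the GFP- library, cycling over postmitotic cells, *Hells* at 13.6 (10.9 to 17.2), *Mbd4* at 3.51, *Mtr* at 2.33 and *Ahcy*, which clears the product of each methylation, at 2.19 were higher, and *Idh1* at 0.275, *Zfp57* at 0.337, *Gadd45a* at 0.387 and *Cxxc4* at 0.394 lower. By list, the counts higher and lower were 1 and 0 of 7 readers, 1 and 1 of 6 partners tested, and 0 and 3 of 11 removal and TET partner genes. They were 2 and 0 of 4 methyl supply genes and 0 and 0 of 5 CXXC proteins. Over all genes 14.0% were higher and 15.0% lower. *Gadd45a* and *Gadd45g* were the list genes past 2-fold between neurogenic and other cycling cells, at 18.8 (17.5 to 20.2) and 12.3 (10.3 to 14.7). They were 2 of the 10 genes tested in their list, where 2.76% of all genes were higher and 4.01% lower.

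**Figure D5:**
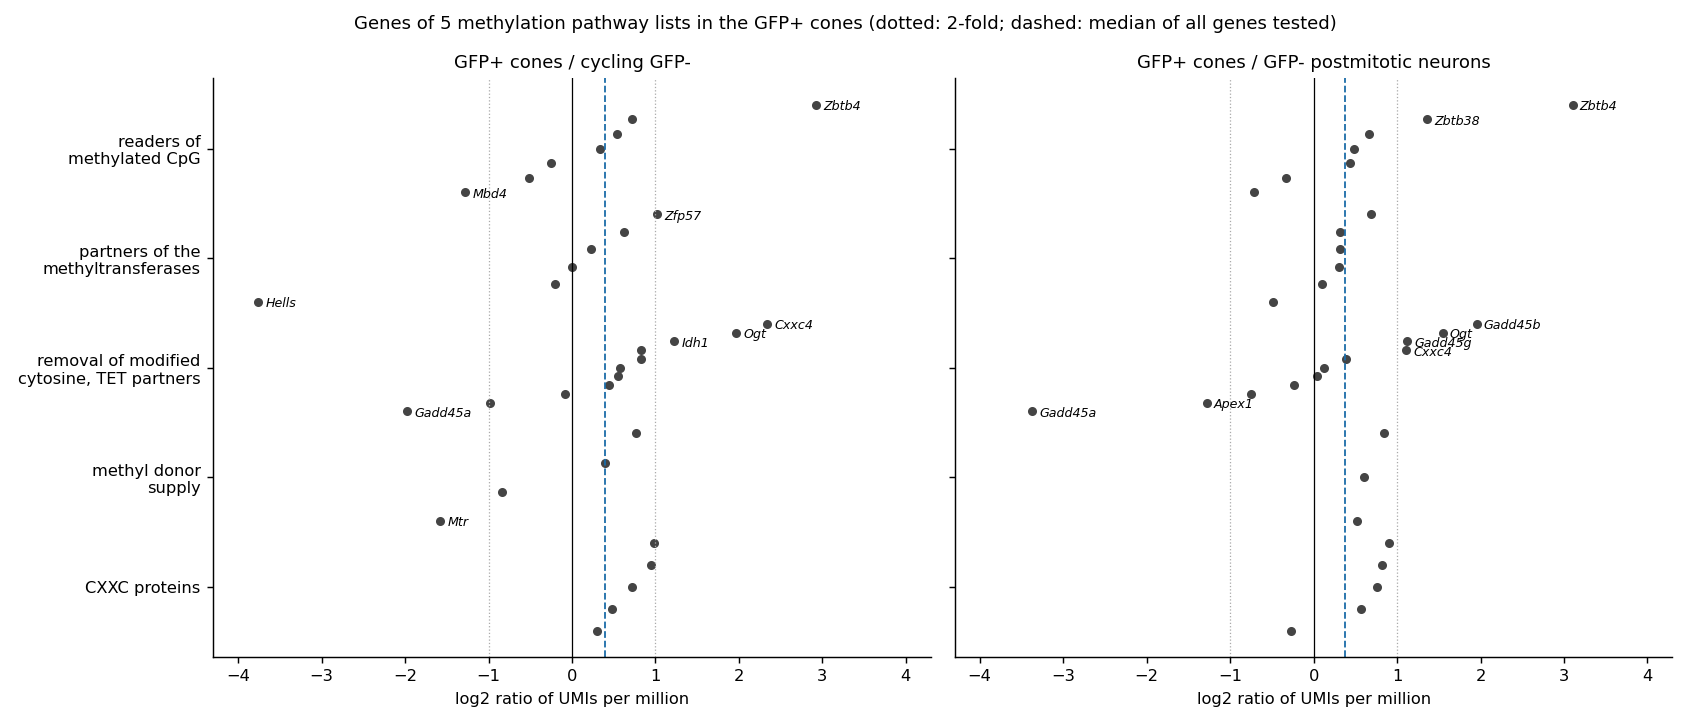
Log2 ratio (UMIs per 1000000) of the genes of 5 methylation pathway lists in the GFP+ cones over cycling GFP- cells (left) and over GFP- postmitotic neurons (right). Each point is a gene with 50 or more UMIs, genes past 2-fold (dotted lines) are named, and *Hells*, at a ratio of 0.0739, lies far left in the first panel but not in the second.

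The genes whose levels ran most like each member were found over the 10 groups of 50 or more cells, by Pearson's r of log2(CPM + 5) among genes with 50 CPM in a group. The groups share 2 libraries and were set by marker genes, so r is a description. *Uhrf1* ran with *Tsen15* (0.973), *Prim1* (0.968) and *Rrm2* (0.964), of which the last 2 are in the S list that set the groups. *Dnmt1* ran with *Pold1* and *Pole3* (0.973 each), subunits of DNA polymerases, and with *Pla2g12a* (0.970). *Tet3* ran with *Kmt2e* (0.986), *Mxi1* (0.985), a MYC antagonist, and *Tmem59* (0.974). *Dnmt3a* ran with *Mrps34* (0.965), *Thoc6* (0.936) and *Npc2* (0.934), and *Tet1* with *Cfap97* (0.959), *Mrps35* (0.941) and *Mettl23* (0.937). *Tet2* ran with *4833420G17Rik* (0.937), *Yeats4* (0.922) and *Mrps6* (0.918), and *Dnmt3b* less closely with *Ndufc2* (0.835), *Thumpd1* (0.811) and *Sar1a* (0.785).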

How the data were processed

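The authors aligned the reads to mm10 with Cell Ranger 2.1.1 and deposited unnormalised UMI counts per gene and cell, 1 matrix per gate; whether strand was used in counting is not given in the sources used here. A cell entered with 250 to 3500 detected genes and less than 0.25 of its UMIs from mitochondria. Counts were summed per cell group and given per 1000000 UMIs of that group (CPM). Levels have exact Poisson intervals, shares exact Clopper-Pearson intervals and ratios exact conditional binomial intervals (Python 3.11.15, scipy 1.17.1), and the ratio code was tested on simulated data. Genes with 50 or more UMIs over both groups were compared, and "past 2-fold" is a size, not a test, since each gate is 1 library. Shares of cells were also computed with each cell thinned to 3200 UMIs. Scrublet (scanpy 1.11.5) marked 3 GFP+ and 55 GFP- barcodes as doublets, too few in the GFP+ library to take as a working call, so doublets were not removed.

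Alternatives were TMM factors (edgeR 4.0.16, R 4.3.3), means of scaled cells, thinning, other cell filters, cycle thresholds and marker minimums, a 1.5-fold threshold and ratios relative to the median gene. The genes named are the 7 members, the pathway and marker lists (2 pathway genes are not reported here), and the 3 genes most like each member. The members and lists were chosen with earlier results of these data known. The mean UMIs per cell, the comparison of GFP+ cones with cycling cells the division of neurons by progenitor UMIs and the TMM ratios of pathway genes were added after seeing the data.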

Additional observations from a re-analysis of the deposited data

How the results depend on the processing

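Of 483 member ratios recomputed under 11 alternatives, 423 stayed within the interval of the reported ratio, 57 moved outside it and 3 that had been past 2-fold changed direction. A change of direction was counted only for ratios past 2-fold. Ratios within 2-fold also crossed 1, as *Dnmt3a* did between the gates, from 1.14 to 0.906 with TMM factors. The 3 were ratios of mean UMIs per cell, a scale added after seeing the data: *Tet1* between the gates (0.988), and *Tet1* (0.941) and *Tet3* (0.979) in GFP+ cones over GFP- postmitotic neurons. On that scale 0 members were higher past 2-fold between the gates, in cones over neurons and in cones over cycling cells. In each of these comparisons 3 were lower, *Dnmt3b* included. GFP+ cells held fewer UMIs each, which lowers the ratio of every gene on that scale. The share of all genes past a threshold was computed neither on that scale nor under the other alternatives, so these counts have none beside them. In cones over neurons, TMM factors and ratios relative to the median gene each left 0 members higher and 2 lower (*Dnmt3b* joined *Uhrf1*), and 2 were lower past 1.5-fold. *Tet1* also came within 2-fold under TMM between the gates (1.66) and in cones over cycling cells (1.77). For cycling over postmitotic cells, 1 member was lower with means of scaled cells and 1 when thinned (*Tet3*, 0.5 and 0.487), and 2 past 1.5-fold, and with a cycle threshold of 40 the ratio of *Uhrf1* was 2.67, the lowest of its alternatives. For S-marked over G2/M-marked cells, 1 member, *Uhrf1*, was higher when thinned (6 members tested), with a cycle threshold of 40, and past 1.5-fold. Between ganglion and amacrine/horizontal cells 1 member was lower past 1.5-fold. The cause of these changes was not tested. No paired analysis was possible because each gate is 1 library. Spread between animals or sorts cannot be measured here, and the fewer UMIs of GFP+ cells limit what is seen of low genes such as *Tet1* and *Tet2*.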

Other observations

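Cells between the cycling and postmitotic thresholds entered the comparison of the gates and no other. The 227 such GFP- cells held *Uhrf1* at 48.4 CPM (38.6 to 59.9) and *Dnmt1* at 37.4 CPM (28.9 to 47.7). The 397 such GFP+ cells held 1 *Uhrf1* UMI, 0.637 CPM (0.0161 to 3.55), *Dnmt1* at 22.9 CPM (16.1 to 31.8) and *Tet3* at 84.7 CPM (71.0 to 100.4). Their cone list stood at 3630 CPM and their S list at 1106 CPM, beside an S list of 1132 CPM in the GFP- cells.

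The 15 GFP- cells with photoreceptor precursor markers and without cone markers held 1 *Uhrf1* UMI, 6 of *Dnmt1*, 5 of *Dnmt3a*, 3 of *Dnmt3b*, 3 of *Tet1*, 0 of *Tet2* and 5 of *Tet3*. Under a count of 0, a *Tet2* level of up to 33.3 CPM is allowed by the exact interval.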
